A study of Homo sapiens with 8 samples.

Results

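CHAC1 and 9 genes of glutathione chemistry and of the NRF2 response were followed across IMR32 cells treated with CR31B or with its vehicle. The 10 genes are CHAC1, GCLC, GCLM, GSR, GPX4, NFE2L2, NQO1, HMOX1, TXNRD1 and SRXN1. They are 10 of the 58787 rows of the deposited gene count table, matched by Ensembl identifier, and all 10 matched. They were chosen by their fold changes and levels in this same comparison, so their values and calls are a description and carry no support of their own.

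IMR32 is an established human neuroblastoma line with amplified MYCN, labelled as wild-type neuroblast cells. CR31B is a synthetic rocaglate, a class of compounds that inhibit the RNA helicase eIF4A, which unwinds the leader of messenger RNAs for translation. CR31B was given at its IC50, a concentration the labels do not state in figures, and control cells received 0.1% DMSO. Both groups were collected at 6 h, with 4 libraries in each, described by the submitters as biological replicates. All libraries are polyadenylated RNA from 1 cell line, so nothing here speaks to other lines or to tissue, and protein and translation were not measured.

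The libraries held 43687828 to 64715535 gene counts each. Replicate 1 of each group was sequenced paired-end and replicates 2 to 4 single-end. Along the first principal component, which carried 51.8% of the variance, the libraries labelled CR31B replicates 2 to 4 lay between 19.0 and 28.96 and the library labelled DMSO replicate 1 at 32.0. The libraries labelled DMSO replicates 2 to 4 lay between -29.4 and -25.8, and the library labelled CR31B replicate 1 at -26.4. Both replicate 1 libraries therefore sat with the group opposite to their label. Labels are used here as given, pair 1 is shown apart from pairs 2 to 4, and the members' fold changes are given with and without it. Between libraries, the mean chi-square of the counts over genes was 8.01 for the libraries labelled CR31B replicate 4 and DMSO replicate 1 and 9.46 for those labelled CR31B replicate 1 and DMSO replicate 2, against 94.7 for the 2 libraries of pair 1. Whether the labels of pair 1 were exchanged was not tested, and it bears on what each value over all 8 libraries means. All 13 neuroblast markers used, among them HAND2 and MYCN, reached at least 1 CPM (a gene's counts scaled to library size), and none of 6 leukocyte markers did. The summed neuroblast markers were 6210 to 6830 CPM in the single-end CR31B libraries and 5050 to 5390 CPM in the single-end DMSO libraries, and 5290 CPM labelled CR31B against 6600 CPM labelled DMSO in pair 1. The low sums of other markers ran the other way in the single-end libraries, with 3.83 to 4.45 CPM for CR31B against 6.5 to 8.56 CPM for DMSO for Schwann cells, 0.362 to 0.686 against 0.858 to 1.11 CPM for leukocytes, and 1.47 to 1.63 against 2.38 to 2.9 CPM for endothelial or epithelial cells. The part of these markers in the results was not tested. In bulk RNA a change in the mix of cells and a change in RNA per cell cannot be told apart.

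Glutathione is the main small thiol of the cytosol. Glutamate-cysteine ligase, with GCLC as its catalytic and GCLM as its modifier subunit, makes the first and rate-limiting bond, CHAC1 breaks glutathione down by releasing 5-oxoproline, GSR returns the oxidised form to the reduced form, and GPX4 spends reduced glutathione to remove lipid hydroperoxides and so restrains ferroptosis. NFE2L2 encodes NRF2, the transcription factor that KEAP1 marks for degradation until oxidants or electrophiles arrive, and NQO1, HMOX1, TXNRD1 and SRXN1 are among its classical targets. CHAC1 is best known as a target of ATF4 and the integrated stress response, and not of NRF2.

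Short promoter stretches that hold known motif letters of ATF4 or NRF2 are shown first, since the results turn on CHAC1 on the one side and on NRF2 targets on the other. RefSeq windows of GRCh38.p14, from 250 bases before to 50 bases after each annotated start, were found for 8 of the 10 genes, with 12 windows in all. GSR and HMOX1 had no entry. They were searched on both strands for the core of the antioxidant response element that NRF2 binds, TGACNNNGC, and for the ATF4 and C/EBP composite element, TGATGNAA. The composite element was present in 1 of the 12 windows, that of CHAC1, against 3.62% of all 35116 promoter windows. The antioxidant core was present in 3 of the 12, 1 of GCLM and 2 of TXNRD1, against 13.3% of all windows. Searched on the gene's own strand alone, the counts were 0 for the composite element (background 1.87%) and 1 for the antioxidant core (background 6.9%). Each window below is 30 bases, 5′ to 3′ on the gene's strand, with the match in capitals. A match written as the reverse complement reads TTNCATCA for the composite element and GCNNNGTCA for the antioxidant core.
CHAC1, chr15:40953252-40953281, plus strand, composite element: tcccctgccgTTGCATCActcctgccaggt
GCLM, chr1:93909445-93909474, minus strand, antioxidant core: tacgatttctGCTTAGTCAttgtcttccag
TXNRD1, chr12:104215670-104215699, plus strand, antioxidant core: acacgggctaTGACTTCGCtgttgtcaccg
TXNRD1, chr12:104215761-104215790, plus strand, antioxidant core: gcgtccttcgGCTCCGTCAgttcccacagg
TXNRD1, chr12:104286920-104286949, plus strand, antioxidant core: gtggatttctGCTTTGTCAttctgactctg
The CHAC1 match lies 201 bases before the RefSeq start and within exons of 2 longer GENCODE transcripts. The GCLM match lies 25 bases before its start. TXNRD1 carried the core in windows of 2 start sites, with 2 matches in the upstream one. A match is a match of letters only, since no binding was measured, and a window without a match says only that these letters are absent from it.

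CHAC1 was low in the single-end DMSO libraries and 8.0 times as high in the single-end CR31B libraries. The gene (ENSG00000128965) lies at chr15:40952962-40956519 on the plus strand in GRCh38, as do all coordinates of genes here, from GENCODE release 29. Normalised by trimmed mean of M-values (TMM), its level was 21.8, 24.5 and 26.2 CPM in CR31B replicates 2, 3 and 4 and 3.14, 3.26 and 2.67 CPM in DMSO replicates 2, 3 and 4. These groups did not overlap, with means of 24.2 ± 2.22 CPM and 3.02 ± 0.312 CPM (SD, n = 3 each) and a ratio of 8.0. In pair 1 the order was the opposite, with 3.47 CPM in the library labelled CR31B and 26.3 CPM in the library labelled DMSO. The pair 1 value labelled DMSO was thus slightly above all single-end CR31B values, and the value labelled CR31B slightly above all single-end DMSO values. Counts behind these values ran from 137 to 1419 a library.

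On the log2 scale CHAC1 differed by 2.99 ± 0.107 (SE, 95% interval 2.76 to 3.23) across the 6 single-end libraries in edgeR's quasi-likelihood fit. The CR31B minus DMSO differences in log2 CPM were -2.92 in pair 1 and 2.79, 2.90 and 3.29 in pairs 2, 3 and 4. Across all 8 libraries, with layout in the model, the fitted change was 1.98 ± 1.0, its interval ran from -0.31 to 4.28, and the groups overlapped.

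**Figure D1:**
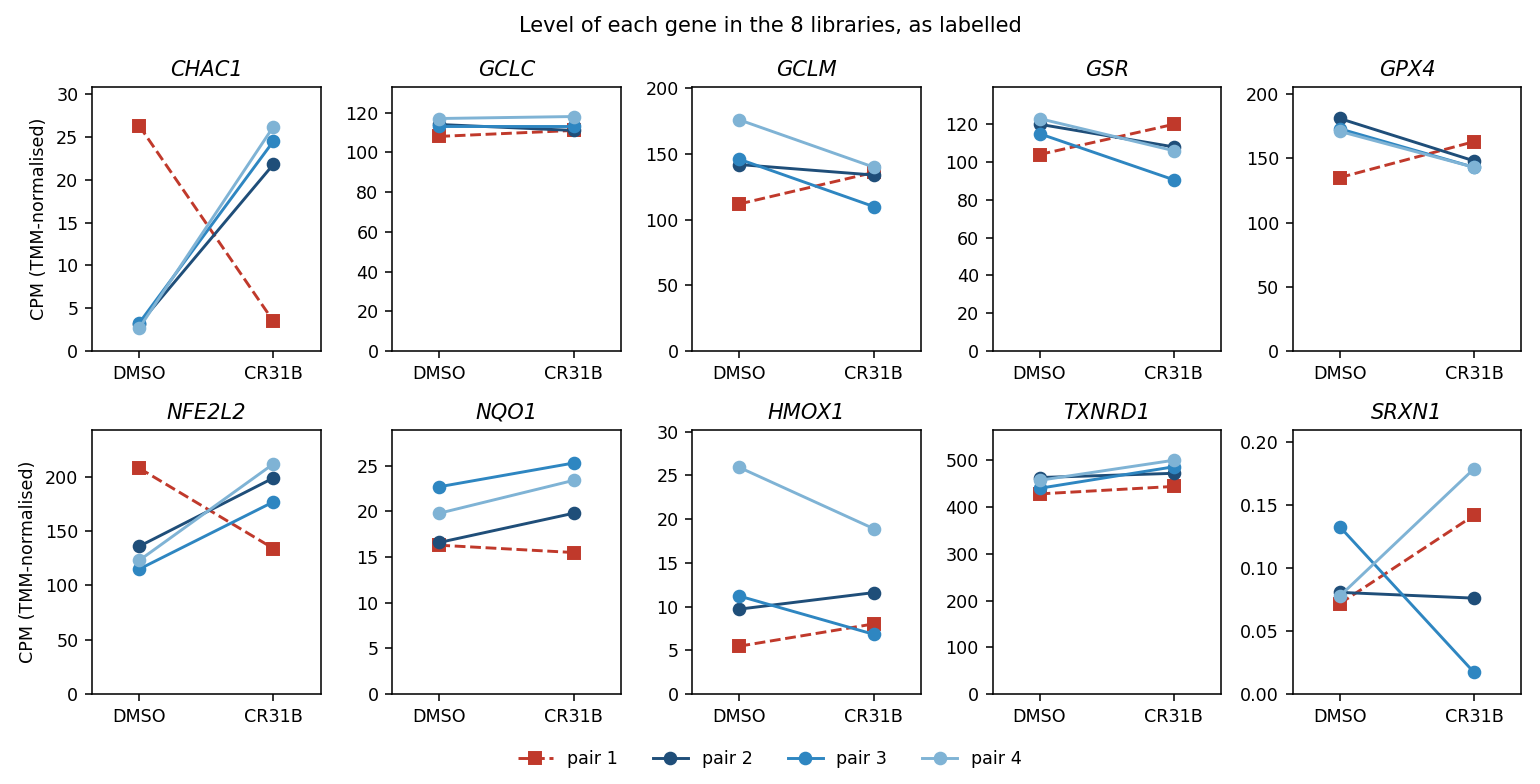
Each panel plots 1 gene, with its level in TMM-normalised CPM on the vertical axis from 0 and the DMSO and CR31B libraries of each same-numbered pair joined by a line (blue circles, single-end pairs 2 to 4; red squares and dashed line, paired-end pair 1). CHAC1 runs from about 3 to over 20 CPM in pairs 2 to 4 and from 26.3 down to 3.47 CPM in pair 1, while GCLC stays between 108 and 118 CPM in all 8 libraries.

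Both subunits of glutamate-cysteine ligase were well expressed, and neither met the threshold of a Benjamini-Hochberg adjusted p under 0.05 in the single-end fit. GCLC (ENSG00000001084, chr6:53497341-53616970, minus strand) stood at 111, 113 and 118 CPM with CR31B and at 114, 113 and 117 CPM with DMSO in pairs 2, 3 and 4. Pair 1 gave 111 CPM for the library labelled CR31B and 108 CPM for DMSO. All 8 values lay between 108 and 118 CPM and the groups overlapped. The log2 difference over pairs 2 to 4 was -0.0071 ± 0.0468 with a 95% interval of -0.111 to 0.0969, and 0.0038 ± 0.0623 over all 8 libraries.

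GCLM (ENSG00000023909, chr1:93885205-93909456, minus strand), whose antioxidant core is printed above, stood at 134, 110 and 140 CPM with CR31B against 142, 146 and 176 CPM with DMSO in pairs 2, 3 and 4. The single-end groups did not overlap, though CR31B replicate 4 and DMSO replicate 2 nearly met. Pair 1 ran the other way, with 136 CPM in the library labelled CR31B and 112 CPM in the library labelled DMSO. The single-end log2 difference was -0.27 ± 0.102, with an adjusted p of 0.0554, and over all 8 libraries it was -0.14 ± 0.135. With the replicate number as a block it was -0.27 with an adjusted p of 0.00284, and with offsets for GC content and length it was -0.46. Without DMSO replicate 4 it was -0.16 and without CR31B replicate 3 it was -0.17. GCLM met the threshold in 10 of the 16 alternative settings of the single-end fit, and GCLC in 0 of 16. The 2 ligase subunits were therefore not moved alike in point estimate, but the difference between them was not tested.

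GSR and GPX4, the reductase and the lipid peroxidase, were both lower in CR31B in the single-end libraries with ratios of 0.85 and 0.827 to DMSO. GSR (ENSG00000104687, chr8:30678061-30727999, minus strand) stood at 108, 90.6 and 106 CPM with CR31B and at 120, 115 and 123 CPM with DMSO in pairs 2, 3 and 4. The groups did not overlap, and in pair 1 the library labelled CR31B was the higher at 120 CPM against 104 CPM. Its log2 change over pairs 2 to 4 was -0.23 ± 0.069, and -0.12 ± 0.104 over all 8 libraries. The call on GSR was lost without DMSO replicate 2 (adjusted p = 0.0555) and without DMSO replicate 4 (adjusted p = 0.0786). Without CR31B replicate 3 it held, at -0.15 or about 1.5 times smaller.

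GPX4 (ENSG00000167468, chr19:1103926-1106791, plus strand) had little spread within its single-end groups. It measured 148, 143 and 143 CPM with CR31B and 181, 173 and 171 CPM with DMSO in pairs 2, 3 and 4. The groups were separate, and their means were 145 ± 2.98 CPM and 175 ± 5.48 CPM (SD, n = 3 each), a ratio of 0.827. Pair 1 gave 163 CPM for the library labelled CR31B and 135 CPM for DMSO. GPX4 changed by -0.27 ± 0.0478 in log2 over pairs 2 to 4, with pair differences of -0.29, -0.27 and -0.26, and the 8 libraries together gave -0.14 ± 0.103. Its transcripts are rich in G and C (62.5%, percentile 91.4 of tested protein-coding genes), and with offsets for GC content and length the single-end change was -0.13, with an adjusted p of 0.0495.

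NFE2L2, the gene of NRF2 itself, was higher with CR31B in pairs 2 to 4. It lies at chr2:177227595-177392697 on the minus strand (ENSG00000116044), and 17.6% of its exon bases are shared with other genes on the same strand. Its level was 199, 177 and 212 CPM with CR31B and 136, 115 and 123 CPM with DMSO in pairs 2, 3 and 4. The lowest CR31B value was above the highest DMSO value, and the means of 196 ± 17.7 CPM and 125 ± 10.5 CPM (SD, n = 3 each) stood in a ratio of 1.57. The library labelled CR31B replicate 1 gave 134 CPM and that labelled DMSO replicate 1 gave 208 CPM. Over pairs 2 to 4 the log2 change was 0.65 ± 0.0784, and over all 8 libraries 0.34 ± 0.213.

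Of the 4 members named above as classical NRF2 targets (NQO1, HMOX1, TXNRD1 and SRXN1), 3 could be tested. None of those 3 met the threshold in the single-end fit. This count leaves out the glutathione genes given above, such as GCLM with its antioxidant core. TXNRD1 (ENSG00000198431, chr12:104215779-104350305, plus strand), the cytosolic thioredoxin reductase, measured 472, 486 and 500 CPM with CR31B and 463, 440 and 457 CPM with DMSO in pairs 2, 3 and 4. The groups did not overlap but lay close together. It was the only 1 of the 9 tested genes whose pair 1 difference (444 CPM labelled CR31B, 428 CPM labelled DMSO) had the sign of the mean of pairs 2 to 4. The single-end log2 difference was 0.10 ± 0.0497 (95% interval -0.0093 to 0.211), and with upper quartile scaling it was 0.0052. All 8 libraries gave 0.088 ± 0.0663.

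NQO1 (ENSG00000181019, chr16:69706996-69726951, minus strand), a quinone reductase often read as an NRF2 reporter gene, gave 19.8, 25.3 and 23.4 CPM with CR31B and 16.6, 22.7 and 19.8 CPM with DMSO in pairs 2, 3 and 4. The groups overlapped, since DMSO replicate 3 was above CR31B replicate 2, although each single-end pair was higher with CR31B. Pair 1 was nearly level at 15.5 CPM labelled CR31B and 16.3 CPM labelled DMSO. The single-end log2 difference of NQO1 was 0.22 ± 0.12 (adjusted p = 0.175), and the fit with the replicate block gave 0.22 with an adjusted p of 0.00698. It was 0.11 without DMSO replicate 2 and 0.33 without DMSO replicate 3, and all 8 libraries gave 0.14 ± 0.129. Of its exon bases 17.7% overlap a gene on either strand and 0.0% a gene on the same strand. The strand setting of the counting is not described in the sources used here, though the name of the deposited counts holds the word 'reverse'.

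HMOX1 (ENSG00000100292, chr22:35380361-35394214, plus strand), which degrades haem, was the most scattered of the 9 tested genes. With CR31B it measured 11.6, 6.83 and 18.9 CPM and with DMSO 9.71, 11.2 and 25.9 CPM in pairs 2, 3 and 4, and in pair 1 it was 8.02 CPM labelled CR31B and 5.48 CPM labelled DMSO. Both replicate 4 libraries were the highest of their group, and the groups overlapped widely. The highest single-end DMSO value was 2.66 times the lowest. The log2 difference was -0.33 ± 0.393 with a 95% interval of -1.2 to 0.546. That interval holds both falls and rises, so the direction was not resolved at this spread. Without DMSO replicate 4 the sign turned, to 0.25, and over all 8 libraries the value was -0.12 ± 0.404.

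SRXN1 (ENSG00000271303, chr20:646615-653370, minus strand), which repairs overoxidised peroxiredoxins, had almost no counts. The 4 CR31B libraries held 8, 4, 1 and 8 counts and the 4 DMSO libraries 3, 5, 9 and 4, in order of replicate. That is 0.0172 to 0.179 CPM, below the filter on low counts, and SRXN1 was not tested. Of its exon bases 85.0% are shared on the same strand with AL121758.1, an annotated gene with 0 counts in all 8 libraries. Reads in shared exons are often left uncounted by gene counters, and whether that was done here is not given in the sources used here. A low count therefore does not show that SRXN1 is silent in these cells.

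**Figure D2:**
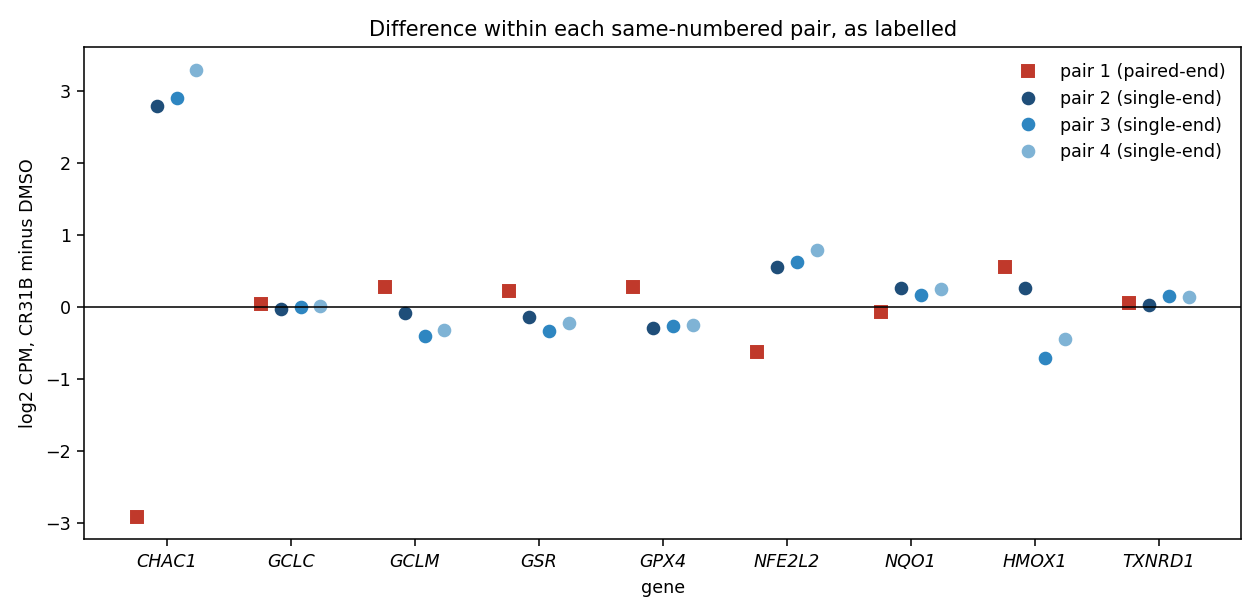
The vertical axis gives the difference in log2 CPM, CR31B minus DMSO, within each same-numbered pair for the 9 tested genes, with red squares for paired-end pair 1 and blue circles for single-end pairs 2 to 4. The square lies on the other side of 0 from the mean of the circles for 8 genes, farthest for CHAC1 (-2.92 against 2.79 to 3.29), and TXNRD1 is the exception.

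Of the 9 genes tested in the single-end libraries, 4 met the threshold: CHAC1 and NFE2L2 were higher and GPX4 and GSR lower. Over all 16696 genes tested, 41.3% met it, 23.8% higher and 17.6% lower, so a count of 4 of 9 is near the background. The median log2 change of the 9 was -0.0071, beside -0.007 over all genes tested. The single-end groups did not overlap for 6 of the 9, where 52.1% of all genes did not. Pairs 2, 3 and 4 had differences of the same sign for 7 of the 9, and for 69.7% of all genes. With the replicate block 6 of 9 met the threshold, CHAC1, NFE2L2 and NQO1 higher and GPX4, GSR and GCLM lower, beside 51.1% of all genes. The 57.5% share of higher genes among all calls was 40.0% under upper quartile scaling and 43.1% under total count scaling, and upper quartile scaling moved the median of all genes to -0.10. CHAC1, NFE2L2, GPX4 and GSR kept their direction under each of the 16 alternative settings. So did GCLM, NQO1 and TXNRD1, which did not meet the threshold in the single-end fit, while GCLC and HMOX1 did not.

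With all 8 libraries and layout in the model, 0 of 9 and 0 of 16518 genes (0.0%) met the threshold in edgeR. None of the 9 had an unadjusted p under 0.05, and 205 of all genes did. DESeq2 and limma voom also gave 0 calls, with 263 and 219 genes at an unadjusted p under 0.05. Leaving out pair 1 brought the counts back to 4 of 9 and 6901. Leaving out only its CR31B-labelled library gave 4 of 9 and 6920, and leaving out only its DMSO-labelled library gave 4 of 9 and 6906. In each of these fits the layout term takes up the remaining paired-end library, so treatment is again estimated from the single-end libraries alone. They therefore do not show what either pair 1 library does by itself. The difference between the effect in pair 1 and that in pairs 2 to 4 met the threshold for 4 of 9 genes (CHAC1, GSR, GPX4 and NFE2L2) beside 42.5% of all genes, with a spread taken from the single-end libraries, since the paired-end group holds 1 library a side. The sign in pair 1 was opposite to that of pairs 2 to 4 for 8 of the 9 tested genes, beside 84.1% of all genes. Layout and pair number coincide in pair 1 and cannot be told apart, and an exchange of its labels was not tested.

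Levels can be compared between genes only per length, here as CPM per kilobase of the union of a gene's exons, in the single-end libraries only. In the single-end DMSO libraries GPX4 was first at 86.8 ± 2.72 and TXNRD1 next at 67.6 ± 1.77 CPM per kilobase (SD, n = 3). GSR at 31.8 ± 1.14 and GCLM at 28.5 ± 3.49 followed with overlapping ranges. NFE2L2 came next at 20.8 ± 1.76 and GCLC at 13.3 ± 0.207. HMOX1 at 6.48 ± 3.72 and NQO1 at 6.04 ± 0.935 overlapped. CHAC1 followed at 1.47 ± 0.152, and SRXN1 was last at 0.0361 ± 0.0115. In the single-end CR31B libraries CHAC1 stood at 11.7 ± 1.08, above the highest NQO1 and HMOX1 values and below GCLC at 13.2 ± 0.381. NFE2L2 at 32.7 ± 2.96 was there above GSR at 27.0 ± 2.55, and GPX4 at 71.8 ± 1.47 and TXNRD1 at 72.5 ± 2.12 overlapped. With the longest transcript as length, NFE2L2 was the third in DMSO, at 43.7. By that length, in the single-end CR31B libraries, CHAC1 at 13.1 was far below GCLC at 29.9. GPX4 (121 to 125) and TXNRD1 (110 to 117) then did not overlap.

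**Figure D3:**
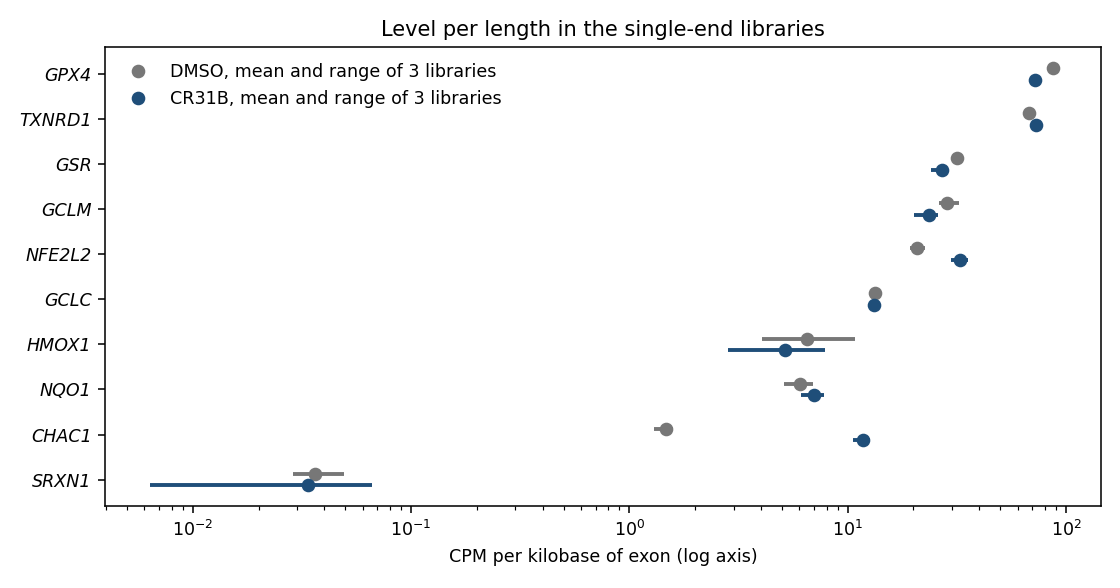
Points give the mean and bars the range over 3 single-end libraries (grey, DMSO; blue, CR31B) of CPM per kilobase of exon, on a logarithmic horizontal axis. CHAC1 shows the widest gap between its points, from 1.47 to 11.7, and HMOX1 and SRXN1 have wide bars.

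The genes differed in transcript features that had no part in their choice. An in-frame TGA codon, read as selenocysteine in the selenoproteins, is present in GPX4 at codon 73 of 197 and in TXNRD1 at codon 498 of 499, and in none of the other 8. The annotated leader (5′ UTR) of the principal CHAC1 transcript has 20 bases, against a median of 210 bases over tested protein-coding genes, and that of NFE2L2 has 555 bases. The longest purine run in the leader was 26 bases in GCLC (percentile 98.9 of tested protein-coding genes), 14 in NFE2L2, 11 in GPX4, 10 in SRXN1, 9 in NQO1 and in TXNRD1, 6 in CHAC1, GSR and HMOX1, and 4 in GCLM (percentile 4.62), against a median of 8 bases.

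Over the 8 libraries, NFE2L2 followed CHAC1 most closely of the other tested members (Pearson r of log2 CPM 0.96) and GPX4 ran most nearly opposite to it (r = -0.946). GSR had r = -0.848 and GCLM r = -0.713, TXNRD1 0.415, NQO1 0.353, HMOX1 -0.308 and GCLC -0.238 (n = 8 libraries, which share group and layout). Over the 6 single-end libraries r was 0.952 for NFE2L2, -0.973 for GPX4, -0.826 for GSR, -0.704 for GCLM, 0.843 for TXNRD1, 0.573 for NQO1, -0.267 for HMOX1 and -0.143 for GCLC, so the value of TXNRD1 was 2 times as large without pair 1. Among 10796 genes with a mean of at least 5 CPM, the 5 with the highest r to CHAC1 were ZYG11B (0.9997), ZNF768, SLK, BIRC2 (0.9986 each) and MEIS1 (0.9985). They moved far less, with single-end log2 changes of 0.59 ± 0.0469 for ZYG11B, 0.89 ± 0.0466 for ZNF768, 1.08 ± 0.0491 for SLK, 0.97 ± 0.0512 for BIRC2 and 0.85 ± 0.0482 for MEIS1. By Spearman's rho 0 of these 5 stayed among the first 5, and over the 6 single-end libraries 1 did, ZYG11B.

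Around the 10 genes, 8 lists from general knowledge held 207 other genes of the same pathways, of which 182 were tested in the single-end libraries. These lists were written with earlier results of these data known. In all, 42 of the 182 were higher and 68 lower with CR31B (23.1% and 37.4%), beside 23.8% and 17.6% of all genes tested. Across all 8 libraries 0 of the 182 met the threshold in edgeR, DESeq2 or limma voom, and 3 had an unadjusted p under 0.05 in edgeR. Each count below is from the single-end fit, and the pair 1 median of each list is given as the difference with no replicate check. The lists share genes, SLC7A11, SQSTM1, PRDX1 and FTL among them, so their counts and medians are not separate observations.

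The list of glutathione synthesis, breakdown and supply was mixed, with 6 of 19 higher and 5 lower and a median log2 change of 0.053 (pair 1 median -0.068). Its sign turned under total count scaling (-0.026), upper quartile scaling (-0.043) and GC and length offsets (-0.014). SLC7A11, the cystine importer that feeds the ligase and a target of both ATF4 and NRF2, was highest, with a log2 change of 2.29 ± 0.161. It stood at 100, 155 and 150 CPM with CR31B and at 23.0, 28.2 and 31.6 CPM with DMSO in pairs 2, 3 and 4, and at 33.1 CPM labelled CR31B and 119 CPM labelled DMSO in pair 1. GSS, which completes glutathione, was higher by 0.24 ± 0.0765 (adjusted p = 0.0277), a call that held in 9 of 16 alternatives. SLC1A1, a glutamate and cysteine importer, fell by 0.39 ± 0.102.

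Enzymes that use glutathione were lower more often than higher. Of the glutathione peroxidases, transferases and glutaredoxins, 2 of 28 were higher and 16 lower, with a median of -0.21 (pair 1 median 0.26), and the median ran from -0.3 to -0.18 over the 16 alternatives. Without CR31B replicate 4, 1 was higher and 10 lower, and with GC and length offsets or upper quartile scaling 0 were higher. GPX3, the secreted peroxidase, fell by 0.69 ± 0.0857, at 9.57 ± 0.83 against 15.5 ± 0.517 CPM (SD, n = 3 each). GLRX2, the mitochondrial glutaredoxin, was higher by 0.23 ± 0.057, and with GC and length offsets its change was 0.013 with an adjusted p of 0.883.

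Other NRF2 targets were lower more often than higher, while NFE2L2 was higher. Of 38 tested, 3 were higher and 18 lower, with a median of -0.26 (pair 1 median 0.27) that ran from -0.36 to -0.22 over the alternatives. SQSTM1, a target of NRF2 that also encodes the KEAP1-binding autophagy receptor p62, fell by 1.11 ± 0.0665. It measured 38.3, 36.0 and 39.4 CPM with CR31B and 74.6, 85.5 and 85.1 CPM with DMSO in pairs 2, 3 and 4, and in pair 1 83.6 CPM labelled CR31B and 38.9 CPM labelled DMSO. SLC7A11, named above, was the highest of this list as well.

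The regulators and partners of NRF2 were divided, with 8 of 23 higher and 9 lower and a median of -0.036 (pair 1 median 0.068), whose sign turned in at least 1 of the 16 alternatives (range -0.13 to 0.014). Without DMSO replicate 2, 5 were lower. EP300, the acetyltransferase that serves as a coactivator, was higher by 1.68 ± 0.0713, at 421 ± 39.7 against 131 ± 4.67 CPM (SD, n = 3 each). KEAP1 fell by 0.15 ± 0.0548 (adjusted p = 0.0434), a call held in 10 of 16 alternatives, with a pair 1 difference of 0.13. BACH1, the repressor that competes with NRF2 at its sites, differed by -0.026 ± 0.0595 (pair 1 difference 0.10) and its groups overlapped.

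In the thioredoxin and peroxiredoxin system 6 of 26 were higher and 12 lower, with a median of -0.16 (pair 1 median 0.073). The higher count was 3 without CR31B replicate 4 and under upper quartile and total count scaling. SESN2, a sestrin that ATF4 also induces, was higher by 1.76 ± 0.0995 and PRDX1, an abundant peroxiredoxin and NRF2 target, fell by 0.46 ± 0.0529, at 383 ± 17.4 against 528 ± 14.0 CPM (SD, n = 3 each). Of the selenoproteins and the factors that insert selenocysteine, 5 of 24 were higher and 10 lower, with a median of -0.15 (pair 1 median 0.14), and under upper quartile scaling 0 were higher and 14 lower. The higher count was also 0 without DMSO replicate 2, 1 without CR31B replicate 4, and 2 without DMSO replicate 3 or 4. TXNRD3, a relative of TXNRD1, was higher by 0.38 ± 0.124 (adjusted p = 0.0305), a call held in 10 of 16 alternatives.

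Of the haem, iron and ferroptosis genes, 6 of 28 were higher and 7 lower, with a median of -0.018 (pair 1 median 0.045), and with the replicate block 9 were higher and 9 lower. Under upper quartile scaling 5 were higher and 12 lower, and under total count scaling 6 and 11. FTL, the ferritin light chain, fell by 0.53 ± 0.0561, at 491 ± 19.4 against 711 ± 33.8 CPM (SD, n = 3 each).

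Genes of the ATF4 branch, which lies upstream of or beside CHAC1, were mostly higher. Of 16 tested, 10 were higher and 2 lower, with a median of 0.43 (pair 1 median -0.43) that ran from 0.33 to 0.51 over the alternatives, while 5 were lower when GC and length offsets were combined with the block. ATF4 itself was higher by 0.39 ± 0.0518, at 483 ± 14.3 against 369 ± 14.5 CPM, and ATF3, a stress-induced factor, by 1.19 ± 0.111, at 17.4 ± 1.13 against 7.65 ± 1.15 CPM (SD, n = 3 each). DDIT3, which encodes CHOP, was higher by 0.37 ± 0.123 (adjusted p = 0.0349), a call held in 10 of 16 alternatives. PPP1R15A, which directs dephosphorylation of eIF2α and is known as a CHOP target, fell by 0.47 ± 0.0725. CHAC1 and SLC7A11 were thus above each of these named ATF4 branch genes in log2 change.

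**Figure D4:**
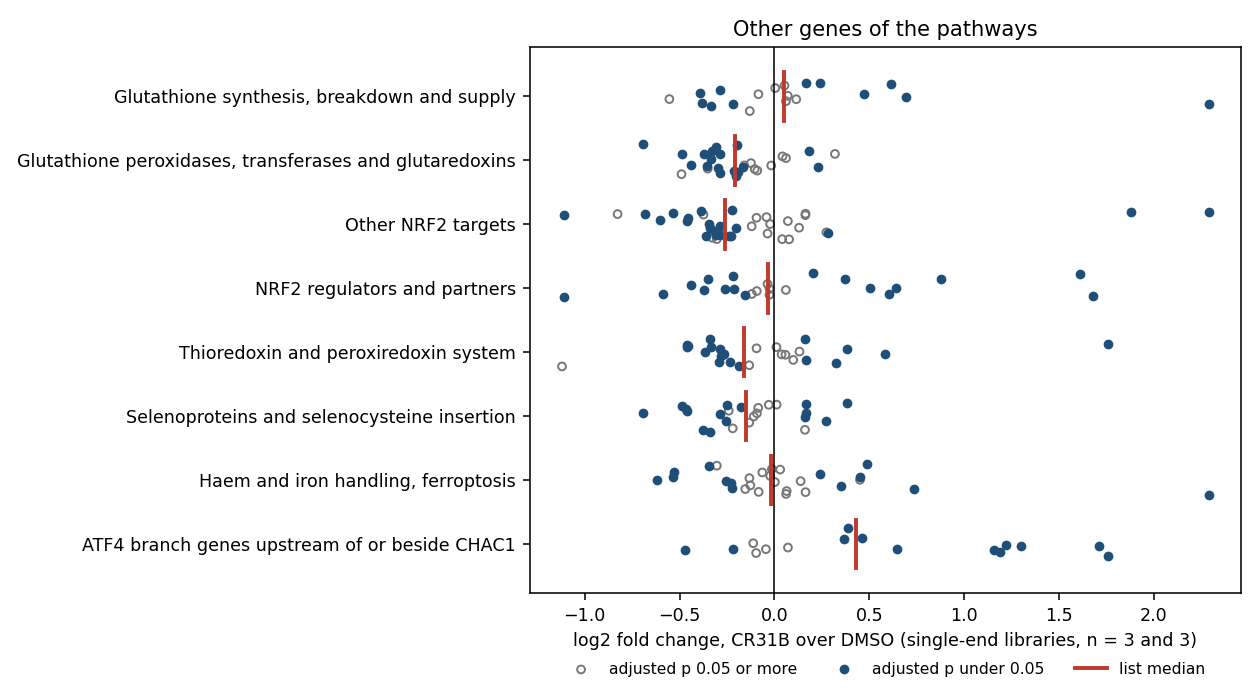
Each point is 1 tested gene of a list, placed on the horizontal axis by its log2 fold change of CR31B over DMSO in the 6 single-end libraries (filled, adjusted p under 0.05; open, not), with a red bar at the list's median. The median is 0.43 for the ATF4 branch and -0.26 for the other NRF2 targets, and SLC7A11 is the point at 2.29 in 3 lists.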

How the data were processed

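Polyadenylated RNA (250 ng, miRNeasy) was made into libraries in 15 PCR cycles and read on a NextSeq 500, per the labels' protocols, which name a TruSeq small RNA kit. The deposited table holds raw counts per Ensembl gene. The submitters' processing notes name GRCh38, FastQC 0.11.7, STAR 2.7.2b, edgeR 3.36.0 and limma 3.50.3 without roles. The annotation release is not given in the sources used here. The strand setting is not described there either, though the name of the deposited counts holds the word 'reverse'. In 1 column name, that of CR31B replicate 4, the cell line is written without its initial, and the rest identified it. Depth was 43687828 to 64715535 counts a library. No pair of libraries agreed within sampling noise (smallest mean chi-square 7.28).

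Genes passing filterByExpr were fitted with edgeR 4.0.16 (R 4.3.3, glmQLFit and glmQLFTest, TMM, two-sided, Benjamini-Hochberg over all tested genes, threshold 0.05) in all 8 libraries with layout as a term, in the 6 single-end libraries, and with a treatment by layout term. DESeq2 1.42.0 and limma 3.58.1 were alternatives, beside other scalings, filters, GC and length offsets, a replicate block and leaving out libraries. Scripts were tested on simulated data. Levels are TMM-normalised CPM, and pair differences are in log2 CPM (prior count 1). Same-numbered single-end libraries deviated together weakly (r = 0.206, 0.384 and 0.157 for replicates 2, 3 and 4), and libraries of different number were not compared. The main fits hold no replicate block, and blocked values are given where they change a member's call. P-values set each change against the spread between these libraries. Those of the treatment by layout term set it against the spread of the single-end libraries alone.

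Members and lists were chosen with earlier results of these data known. From each list up to 3 genes a direction were eligible by log2 change (mean at least 5 CPM, same sign in pairs 2 to 4), of which the first is named; SLC7A11, GSS, KEAP1, BACH1, ATF4, DDIT3 and ATF3 and the 5 genes most like CHAC1 are named whatever their values. Of the list symbols 1, GSTT1, had no match. Further marker lists had 5 of 12 mesenchymal, 1 of 6 Schwann and 1 of 8 endothelial or epithelial genes at 1 CPM or more. 1 neuroblast marker is not reported here.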

Additional observations from a re-analysis of the deposited data

Results flagged for a closer look

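Among the 62 groups of 4 libraries compared for the named genes, 19 had a library whose gap to its nearest neighbour, divided by the group's range, was above Dixon's value of 0.829, and in all 19 it was a replicate 1 library. Chance gives about 1 in 20 groups, but these genes were chosen for large single-end changes or, for 5 of them with 10 of the 19 groups, for following CHAC1 over all 8 libraries, so the count is a description and is not read against chance. In the DMSO group the ratio was 0.975 for CHAC1, 0.911 for SLC7A11, 0.888 for GPX3, 0.969 for EP300, 0.909 for SESN2 and 0.837 for PRDX1. In the CR31B group it was 0.891 for SLC1A1, 0.929 for SQSTM1 and 0.839 for ATF4. Of the genes most like CHAC1, the CR31B and DMSO groups gave 0.899 and 0.915 for ZYG11B, 0.900 and 0.989 for ZNF768, 0.858 and 0.975 for SLK, 0.912 and 0.962 for BIRC2, and 0.896 and 0.946 for MEIS1.

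The effect of pair 1 differed from that of pairs 2 to 4 by the interaction test (edgeR, adjusted p under 0.05) for 24 of 31 named genes, beside 42.5% of all genes, and the choice of genes raises this count. Among the members the log2 difference of the effects was -5.91 for CHAC1, -1.28 for NFE2L2, 0.54 for GPX4 and 0.45 for GSR. Where the single-end effect was positive the difference was negative: -4.14 for SLC7A11, -3.61 for SESN2, -3.36 for EP300, -2.22 for ATF3, -0.85 for ATF4, -0.77 for DDIT3, -0.73 for TXNRD3, -0.51 for GSS and -0.50 for GLRX2. For the genes most like CHAC1 it was -1.19 for ZYG11B, -1.79 for ZNF768, -2.06 for SLK, -1.96 for BIRC2 and -1.67 for MEIS1. Where the single-end effect was negative it was positive: 2.21 for SQSTM1, 1.36 for GPX3, 1.04 for FTL, 1.01 for PPP1R15A, 0.88 for PRDX1 and 0.73 for SLC1A1. Pair 1 has 1 library a side, so pairs 2 to 4 alone supply the error of this test. The difference is the pair 1 effect minus the single-end effect, and many of these genes were chosen for a large single-end effect. That choice favours a difference of the opposite sign, so the signs are a description.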

How the results depend on the processing

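With all 8 libraries, counts of called genes depended on pair 1. Without it they were 6901, 3968 higher and 2933 lower, with 4 members (2 and 2) and 42 higher and 68 lower list genes. Leaving out 1 library gave 0 to 6920 genes, 0 to 3974 higher and 0 to 2954 lower, and 0 to 4 members, 0 to 2 in each direction. The upper ends come from leaving out a pair 1 library, where the layout term takes up its partner and only single-end libraries estimate treatment. GCLC, at 0.0038 in all 8, turned negative under RLE scaling (-0.0028), upper quartile (-0.0371), total count (-0.0303), no filter (-0.00721), the stricter filter (-0.00703), DESeq2 (-0.00289), GC and length offsets (-0.0257, and -0.0258 with the replicate number also as a block) and without pair 1 (-0.00708), and ran from -0.00924 to 0.0239 without 1 library. HMOX1 turned positive without pair 3 (0.0182) and pair 4 (0.0615), and ran from -0.384 to 0.34 without 1 library.

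In the single-end libraries, upper quartile scaling gave 4509 lower genes and no filter 4 lower members. Leaving out 1 library gave 1 to 3 lower members, -0.0279 to 0.0137 for GCLC and -0.75 to 0.248 for HMOX1. For the difference between pair 1 and the rest, upper quartile scaling gave 4811 genes and 4 members above, and no filter 4 members. Of the 5 genes most like CHAC1, 0 stayed by Spearman's rho and 1 over single-end libraries. The causes were not tested. The replicate block gave 8540 called genes and 6 of 9 members, adding GCLM and NQO1, and changed no other member's call; it moved no list's count by over 1.5 times, with glutathione synthesis going to 6 higher and 7 lower, peroxidases to 2 and 17, other NRF2 targets to 4 and 18 and selenoproteins to 5 and 11; in all 8 libraries it gave 0. Counts limit SRXN1 alone, and the spread between libraries limits HMOX1.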
